A study of Mus musculus with 3 samples.

Results

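The genes described here are 10 mouse heat shock chaperones, Hspa1a, Hspa1b, Hspb1, Dnajb1, Hsph1, Hsp90aa1, Hsp90ab1, Hspa8, Hspe1 and Hspd1, taken by name out of 18738 genes found in at least 3 cells. Their UMI counts were summed per cell class and lot and scaled to CPM by the total UMIs of that sum, and all 10 were detected and entered every test. The samples were 3 cryopreserved lots of fetal ovarian somatic cells (FOSCs), lots 26, 29 and 30, from CD1 mouse embryos at embryonic day 12.5, with no treatment that differed between them. Each lot pooled the ovaries of embryos from 10 pregnant females, trypsinised after the mesonephros was cut away, depleted of SSEA1- and CD31-positive cells on magnetic columns to remove germ cells, frozen, thawed and profiled with the 10X Genomics 3′ v3 kit. The lots are thus replicates of a single condition (n = 3), and the germ cells measured are those that escaped the depletion. CD31 is encoded by Pecam1, one of the endothelial markers used here, so the endothelial-like cells below passed through that depletion too. A filter of 200 to 9000 genes and at most 10% mitochondrial UMIs kept 28971 of 29103 barcodes, 9711, 8553 and 10707 in lots 26, 29 and 30, with median depths of 11126, 8949 and 11595 UMIs. Lots shared 19 to 30 barcodes by pairs, and 0 barcodes occurred in all 3 lots.

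Cell classes were rebuilt by clustering with 31 chaperone, co-chaperone and immediate early genes held out of the variable genes, so that the chaperones could not set the classes, and were named from marker lists. They comprised 11851 pre-granulosa-like, 6119 epithelial-like, 3383 stromal-like, 1472 germ cell-like, 390 Sertoli-like (285 of them in lot 29), 349 endothelial-like, 135 myeloid-like and 77 red blood cell-like cells. In every class and lot, none of that class's own markers was at 0. The other 5195 cells, in 7 clusters, stayed unnamed. The pre-granulosa-like, epithelial-like and stromal-like cells are called the main somatic classes below.

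Heat shock chaperones bind unfolded protein and either hold it, fold it with the use of ATP or pass it on for degradation. Some are made in every cell at all times, whereas others are switched on within minutes of heat, oxidative or proteotoxic stress by heat shock factor 1, which binds arrays of the 5-base unit NGAAN in alternating orientation. Early spermatogenic and oogenic cells are known for high levels of some members, among them HSP90α, encoded by Hsp90aa1, which male meiosis requires. In single-cell work the stress-inducible members can also be switched on by dissociation, freezing and thawing, together with immediate early genes.

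Hspa1a (chr17:34969190-34972156, minus strand, GRCm38) and Hspa1b (chr17:34956436-34959238, minus strand) are neighbouring copies that both encode the stress-inducible HSP70. Their promoters are shown because these genes varied most between classes and lots, with that of Hspb1 (chr5:135887919-135889563, plus strand), which encodes the small heat shock protein HSP25, for comparison. The 250 bases before the transcript start are given from RefSeq (GRCm38.p6), 5′ to 3′ on the gene's strand, and capitals mark each pair of facing units, searched as GAANNTTC or TTCNNGAA. Both patterns read the same on either strand and can overlap each other.
Hspa1a, chr17:34972157-34972406: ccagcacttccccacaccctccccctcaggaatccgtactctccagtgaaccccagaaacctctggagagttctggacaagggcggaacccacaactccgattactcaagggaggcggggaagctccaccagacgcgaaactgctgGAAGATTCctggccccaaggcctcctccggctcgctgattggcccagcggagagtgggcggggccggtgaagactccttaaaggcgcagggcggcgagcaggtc
Hspa1b, chr17:34959239-34959488: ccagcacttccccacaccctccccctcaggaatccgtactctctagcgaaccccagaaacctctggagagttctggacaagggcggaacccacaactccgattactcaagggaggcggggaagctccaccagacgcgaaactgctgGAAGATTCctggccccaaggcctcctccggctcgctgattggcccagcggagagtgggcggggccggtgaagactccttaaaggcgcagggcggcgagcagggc
Hspb1, chr5:135887669-135887918: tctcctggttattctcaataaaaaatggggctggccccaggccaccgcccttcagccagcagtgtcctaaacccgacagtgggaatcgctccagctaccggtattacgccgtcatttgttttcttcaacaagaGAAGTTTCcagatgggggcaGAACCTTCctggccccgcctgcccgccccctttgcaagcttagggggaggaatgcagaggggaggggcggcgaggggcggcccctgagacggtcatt
Of the 250 bases, 247 were identical between Hspa1a and Hspa1b, and each held 1 pair, 104 bases before the start. Hspb1 held 2 pairs, 117 and 97 bases before its start. Hspe1 and Hspd1, the mitochondrial co-chaperonin and chaperonin, are transcribed away from each other, and Hsph1 encodes the HSP70 nucleotide exchange factor HSP110. The stretches of these genes that hold the units, each with 10 bases on either side, were as follows.
Hspe1, chr1:55088049-55088086, plus strand: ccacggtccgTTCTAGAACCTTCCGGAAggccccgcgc
Hspd1, chr1:55088049-55088086, minus strand: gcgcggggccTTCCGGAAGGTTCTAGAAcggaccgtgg
Hsph1, chr5:149636352-149636379, minus strand: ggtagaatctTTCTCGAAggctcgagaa
The Hspe1 and Hspd1 lines are a single stretch of DNA read on its opposite strands, with 3 overlapping pairs. Promoter windows were at hand for 7 of the 10 members, 10 windows in all, and 6 of these members, all but Dnajb1, had at least 1 pair in a window. Among all 32851 promoter windows 12.8% held a pair and 0.14% held 3 or more. Hsp90aa1, Hsp90ab1 and Hspa8 had no entry. A match describes letters and is no evidence of binding, and no match says only that the letters are not in the window.

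The 10 genes fell into an abundant group present in every class and a group whose level depended on class and lot. Levels are CPM of 3′-end UMIs, in which each transcript counts once whatever its length, and intervals on them cover counting error only. Outside the red blood cell-like cells, Hsp90ab1, the constitutive cytosolic HSP90, was the highest of the 10 in every named class and lot at 3387 to 6217 CPM. Hspa8, the constitutive HSP70, Hspe1 and Hspd1 lay at 754 to 1333, 594 to 1498 and 317 to 834 CPM. Hsp90aa1, the inducible HSP90 gene, ranged from 448 CPM in endothelial-like cells of lot 26 to 3341 CPM in germ cell-like cells of lot 30. By contrast Hspa1a ranged from 6.58 to 505 CPM over the same classes and lots, and Hspa1b from 5.55 to 216 CPM.

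**Figure D1:**
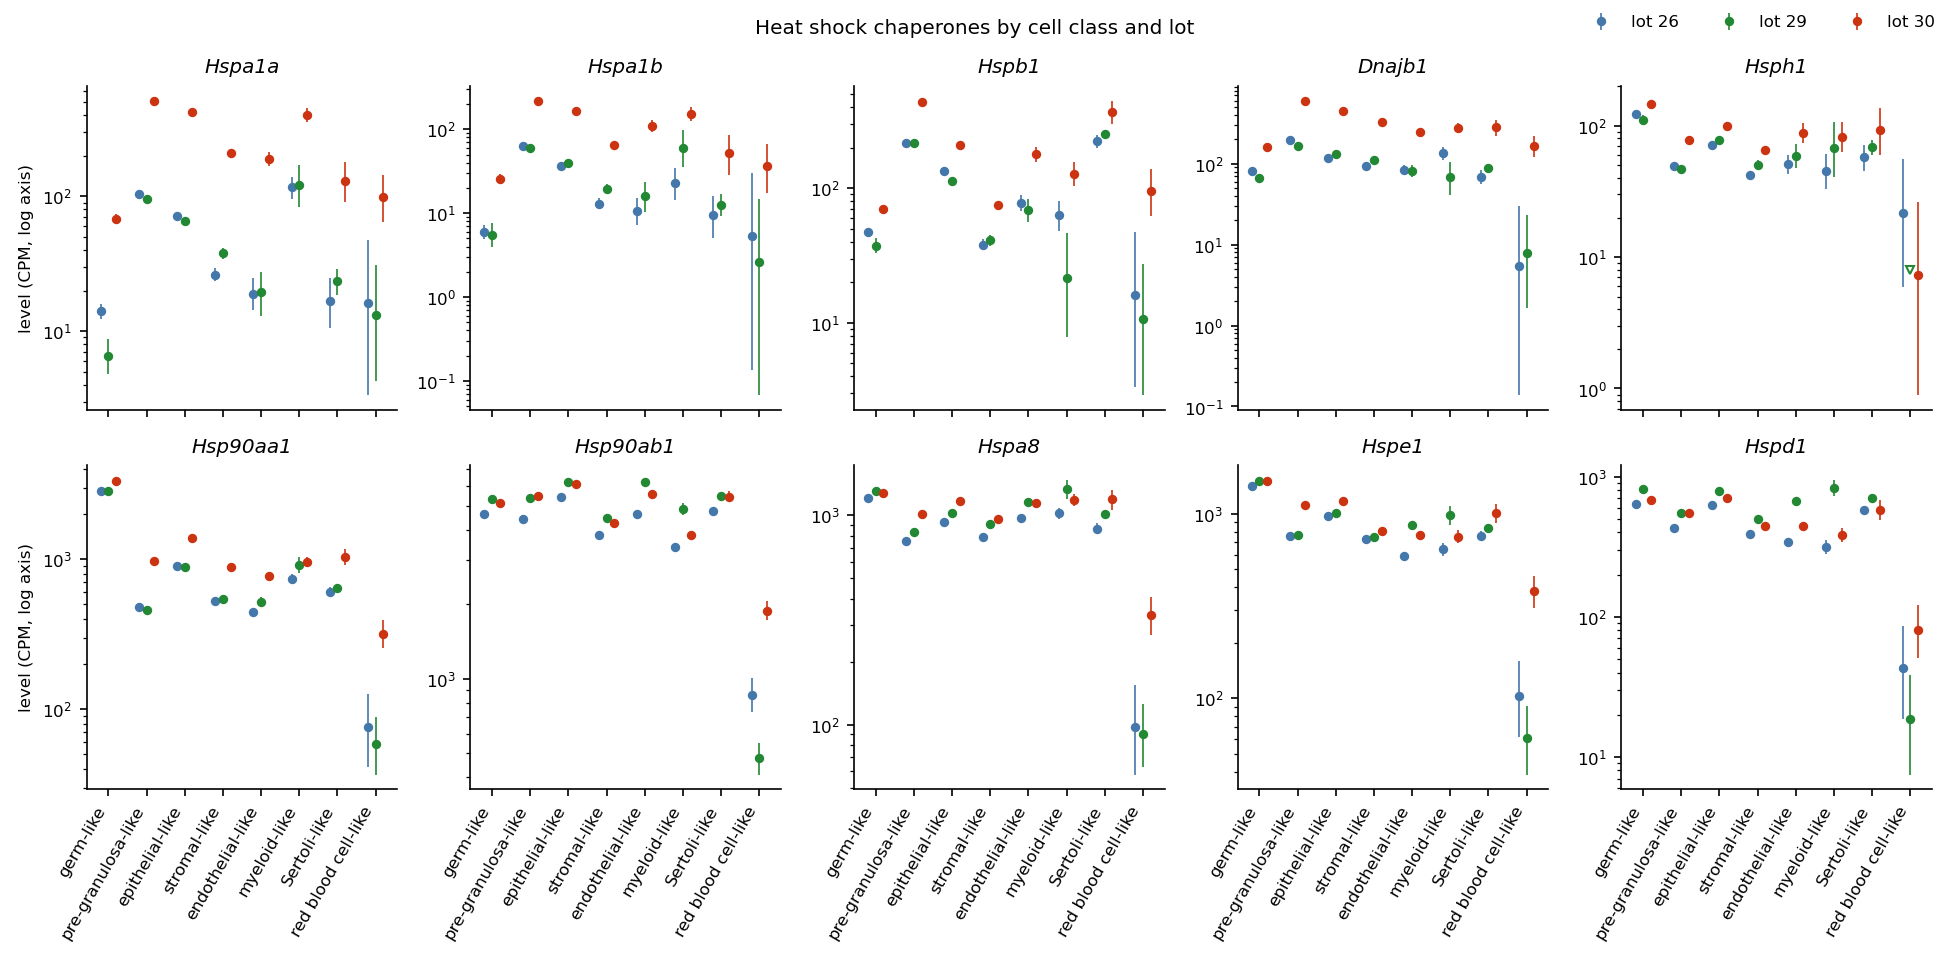
Level of each of the 10 chaperones (CPM, log axis) in the 8 named classes, one point per lot with its exact Poisson 95% interval; the open triangle marks a count of 0, drawn at the level of 3 counts. Germ cell-like points are the lowest for Hspa1a and the highest for Hsp90aa1 among the classes other than red blood cell-like cells, and lot 30 stands above the other lots for Hspa1a, Hspa1b and Dnajb1 in every class.

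By the mean over lots, Hspa1a was highest in pre-granulosa-like and myeloid-like cells and lowest in germ cell-like cells. In lot 30, however, epithelial-like cells exceeded myeloid-like cells. Hspa1a stood at 104, 95.7 and 505 CPM in pre-granulosa-like cells of lots 26, 29 and 30. Its level was 71.3, 65.9 and 423 CPM in epithelial-like and 26.3, 37.7 and 211 CPM in stromal-like cells. In germ cell-like cells it was 14.0, 6.58 and 68.2 CPM. The germ cell-like level was thus below that of each main somatic class within every lot, but the germ cell-like level of lot 30 exceeded the stromal-like levels of lots 26 and 29, so the groups overlap when lots are mixed. Myeloid-like cells, which include macrophages, had 117, 121 and 401 CPM, and their counting intervals covered the pre-granulosa-like level in lots 26 and 29 but not in lot 30. Endothelial-like cells had 19.0, 19.4 and 189 CPM and Sertoli-like cells 16.7, 23.4 and 129 CPM.

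Red blood cell-like cells were taken as the measure of background, and whether they make inducible HSP70 themselves was not tested. Their own markers, mainly globins, took up 742250, 821640 and 595260 CPM in lots 26, 29 and 30. The CPM left for other genes, Hspa1a included, was thus small and differed by lot. Red blood cell-like cells also carried markers of other classes. In lots 26, 29 and 30 the 10 pre-granulosa markers summed to 746, 156.5 and 1473 CPM in them. The same sums were 513, 256 and 456 CPM in germ cell-like cells. The red blood cell-like level of Hspa1a was 16.2, 13.3 and 98.7 CPM, from 3, 5 and 27 UMIs. The germ cell-like level of Hspa1a lay below it in each lot and within its counting interval, which was 3.35 to 47.4 CPM in lot 26. Per cell the order in lot 30 was the other way, with overlapping intervals, as given below. The germ cell-like level could thus not be told from background, and so few UMIs cannot show that it is background alone. The endothelial-like levels of lots 26 and 29, the Sertoli-like levels of all 3 lots and the stromal-like level of lot 26 also fell within those intervals and could not be told from background at this depth. Pre-granulosa-like and epithelial-like levels stood above those intervals in all 3 lots, though the globins hold the red blood cell-like CPM down.

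Hspa1b followed Hspa1a at a lower level. Pre-granulosa-like cells had 63.2, 60.7 and 216 CPM and epithelial-like cells 36.7, 39.3 and 164 CPM. It stood at 13.02, 19.6 and 64.9 CPM in stromal-like and 5.99, 5.55 and 25.7 CPM in germ cell-like cells. The order of these 4 classes was the same as for Hspa1a in every lot. The genes share 49.3% of the 90-base stretches of their whole transcripts, but 0 of the 411 stretches in their last 500 bases, where 3′ reads fall, so their counts are mostly separable. Hspa1a is overlapped on the other strand by the gene model Gm20481, and the strand setting of the counting is not given in the sources used here.

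Hspb1 separated the somatic classes from each other most clearly. Pre-granulosa-like cells had 215, 215 and 439 CPM of it and epithelial-like cells 133, 112 and 210 CPM. Stromal-like cells had 38.1, 41.0 and 74.5 CPM. Each pre-granulosa-like value exceeded every epithelial-like value and each stromal-like value lay below every epithelial-like value. Sertoli-like cells, the male supporting cells whose precursors are those of pre-granulosa cells, had 223, 253 and 366 CPM, above the pre-granulosa-like cells in lots 26 and 29 and below them in lot 30. Germ cell-like cells had 47.5, 37.4 and 69.5 CPM, overlapping the stromal-like values. Dnajb1 (chr8:83608193-83612653, plus strand), the HSP40 partner that loads substrates on inducible HSP70, was also highest in pre-granulosa-like cells, at 194, 167 and 594 CPM, with 118, 132 and 444 CPM in the epithelial-like class. Its stromal-like values were 93.9, 111 and 328 CPM and its germ cell-like values 80.8, 66.8 and 160 CPM. Within each lot germ cell-like cells had the least Dnajb1 of these 4 classes.

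Hsp90aa1 (chr12:110690605-110702728, minus strand) was instead highest in germ cell-like cells among the named classes. It was 2841, 2856 and 3341 CPM in germ cell-like cells, against 894, 889 and 1393 CPM in epithelial-like cells. Pre-granulosa-like cells had 483, 462 and 979 CPM and stromal-like cells 524, 547 and 885 CPM. No germ cell-like value overlapped any somatic value, whereas pre-granulosa-like and stromal-like cells overlapped each other. Hsph1 (chr5:149614287-149636376, minus strand) was likewise highest, among the named classes, in germ cell-like cells at 122, 111 and 147 CPM. Its next highest values, 70.8, 78.4 and 99.4 CPM, were in epithelial-like cells, and pre-granulosa-like and stromal-like cells overlapped at 41.8 to 77.2 CPM.

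Of the constitutive chaperones, Hspa8 (chr9:40800984-40810087, plus strand) was 1216, 1301 and 1271 CPM in germ cell-like cells. Pre-granulosa-like cells had 754, 833 and 1012 CPM. Its epithelial-like values were 929, 1022 and 1176 CPM and its stromal-like values 789, 907 and 963 CPM. Germ cell-like cells thus lay above the main somatic classes by a modest margin, with no overlap. Of the last 500 bases of Hspa8, 79.8% of 90-base stretches also occur in other gene models, mostly processed copies, and 36.0% of those of Hspe1 and 7.06% of those of Hspb1 do. Reads that map to several places were not counted, so those 3 levels are uncertain.

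Hspe1 (chr1:55088132-55091307, plus strand) had 1413, 1496 and 1498 CPM in germ cell-like cells, above every somatic value of 728 to 1174 CPM in the main classes. Hspd1 (chr1:55077835-55088243, minus strand), its partner in the mitochondrial folding chamber, had 640, 820 and 683 CPM in germ cell-like cells and 627, 791 and 709 CPM in epithelial-like cells, which overlapped. In pre-granulosa-like and stromal-like cells Hspd1 lay at 388 to 550 CPM. Hsp90ab1 (chr17:45567775-45573271, minus strand) differed little between classes. Its mean over lots was 5023 ± 367 CPM (SD, n = 3) in germ cell-like, 5080 ± 571 in pre-granulosa-like, 5902 ± 440 in epithelial-like and 4169 ± 346 in stromal-like cells.

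How germ cells compare with somatic cells was tested with edgeR's quasi-likelihood test on the 18 sums of 6 classes in 3 lots, with Benjamini-Hochberg adjustment over 14548 genes. Folds here are against the geometric mean of the 3 main somatic classes, and log2 values are differences of CPM-scale levels with their SE. Of the 10 members, 4 were higher in germ cell-like cells (Hsp90aa1, Hsph1, Hspe1 and Hspa8) and 2 were lower (Hspa1b and Hspb1). Among all genes tested, 40.6% were higher and 36.4% lower, so these counts are no more than the background. Hsp90aa1 was 4.17-fold higher (log2 difference 2.06 ± 0.21, adjusted p = 1.57e-07) and Hsph1 2.11-fold (1.08 ± 0.16, adjusted p = 9.6e-06). Hspe1 was 1.74-fold higher (adjusted p = 1.05e-05) and Hspa8 1.44-fold (adjusted p = 1.66e-04). Each of these 4 was higher in 3 of 3 lots. Hspa1b was 5.21-fold lower (−2.38 ± 0.93, adjusted p = 0.033) and Hspb1 2.43-fold lower (−1.28 ± 0.39, adjusted p = 0.00868), both in 3 of 3 lots.

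Hspa1a differed by a log2 value of −2.37 ± 1.13 (adjusted p = 0.0718), Dnajb1 by −1.13 ± 0.63 (adjusted p = 0.12), Hspd1 by 0.48 ± 0.24 (adjusted p = 0.0811) and Hsp90ab1 by 0.09 ± 0.12 (adjusted p = 0.524). With the lot as a block, which takes out the level that the classes of a lot share, Hspa1a passed at −2.34 ± 0.20 (adjusted p = 3.45e-07), Dnajb1 at −0.98 ± 0.14 (adjusted p = 3.8e-05) and Hspd1 at 0.47 ± 0.13 (adjusted p = 0.00474). That gave 5 members higher and 4 lower, beside 6293 and 5775 of all 14548 genes with the block, so these counts are near the background. Hsp90ab1 did not pass (adjusted p = 0.109 with the block). The calls for Hspb1 and Hspa1b were lost without lot 26 and without lot 29, at log2 values of −1.45 and −1.29 for Hspb1 and −2.40 and −2.42 for Hspa1b.

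Germ cell-like cells held more RNA, at 20304 to 25715 UMIs per cell on average against 9936 to 13414 in the main somatic classes. Counted as UMIs per cell instead of CPM, the median log2 difference of all genes in this contrast rose by 0.88, and the members moved with it. Hsp90ab1 then passed at 0.96 and Hspd1 at 1.34, whereas Hspb1, at −0.41 (adjusted p = 0.477), and Hspa1b, at −1.49 (adjusted p = 0.201), no longer did. With the lot as a block as well, Hspa1a (−1.47, adjusted p = 1.44e-06), Hspa1b (−1.49, adjusted p = 1.97e-08) and Hspb1 (−0.37, adjusted p = 0.00214) were lower per cell too, and Dnajb1 did not pass (−0.09, adjusted p = 0.485). UMIs of Hspa1a per cell in lot 30 were 1.75 (1.62 to 1.89) in germ cell-like, 1.29 (0.847 to 1.87) in red blood cell-like and 5.96 in pre-granulosa-like cells.

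Among the main somatic classes, pre-granulosa-like cells had more Hspb1 than the other 2 classes together, by 3.53-fold (1.82 ± 0.36, adjusted p = 6.85e-04, higher in 3 of 3 lots). Hspb1 was the 1 member called higher, beside a background of 29.2%, and 0 were called lower, beside 25.7%. With the lot as a block Hspa1a (1.07 ± 0.15, adjusted p = 5.45e-05), Hspa1b (1.35 ± 0.12, adjusted p = 1.02e-07), Dnajb1 (0.76 ± 0.13, adjusted p = 2.23e-04) and Hsp90ab1 (0.13 ± 0.05, adjusted p = 0.022) passed as well, the first 3 of these higher in 3 of 3 lots. The Hsp90ab1 difference turned to −0.26 on the scale of UMIs per cell, on which the median of all genes fell by 0.40. Hsph1, Hsp90aa1, Hspa8, Hspe1 and Hspd1 had log2 differences of −0.27 to 0.08 and did not pass with or without the block. Of all 14548 genes, 5180 were higher and 4729 lower with the block.

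Epithelial-like cells, the coelomic surface layer, had more of both HSP90 genes and of Hsph1 than the other main somatic classes. The log2 differences were 0.69 ± 0.24 for Hsp90aa1 (adjusted p = 0.0328), 0.57 ± 0.18 for Hsph1 (adjusted p = 0.0184) and 0.33 ± 0.13 for Hsp90ab1 (adjusted p = 0.0456), each in 3 of 3 lots. These 3 members stand beside a background of 14.7% called higher, and 0 were called lower, beside 20.6%. With the block 8 members passed as higher, adding Hspa1b, Hspb1, Hspa8, Hspe1 and Hspd1, of which Hspd1 had the largest difference, 0.55 ± 0.13. Hspa1b and Hspb1, however, were higher in 1 lot and lower in 2 by mean CPM, and mean Hspb1 was lower in epithelial-like cells, 152 against 171 CPM, since they lie between the other 2 classes on the log scale of the fit. The background rose too, as the count of genes called went from 5131 to 7808, with 3241 of 14548 higher and 4567 lower. The calls without the block were lost for Hsp90aa1 without lot 26 or lot 29, for Hsph1 without lot 29 and for Hsp90ab1 without lot 30, at log2 values of 0.71, 0.64, 0.52 and 0.42.

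Stromal-like cells lay below the mean of the other main somatic classes for all 10 members in each lot. Pre-granulosa-like cells, however, had less Hsp90aa1 and Hspa8 than stromal-like cells in lots 26 and 29, and less Hsph1 in lot 29. Hspb1 was 4.32-fold lower than in the other main somatic classes (−2.11 ± 0.42, adjusted p = 8.49e-04), and Hsp90ab1 (−0.47 ± 0.13, adjusted p = 0.00495), Hspe1 (−0.42 ± 0.15, adjusted p = 0.0228) and Hsph1 (−0.48 ± 0.19, adjusted p = 0.0418) were lower by smaller amounts, all in 3 of 3 lots. These 4 compare with a background of 22.3% called lower, and 0 members were higher, beside 27.5%. With the block all 10 passed as lower, from −0.18 for Hspa8 to −2.11 for Hspb1, beside 4201 of all 14548 genes lower and 5007 higher. Without it, the Hsph1 call was lost when lot 26 or lot 29 was left out, at −0.49 and −0.53, and those of Hsp90ab1 and Hspe1 without lot 30, at −0.49 and −0.36.

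**Figure D2:**
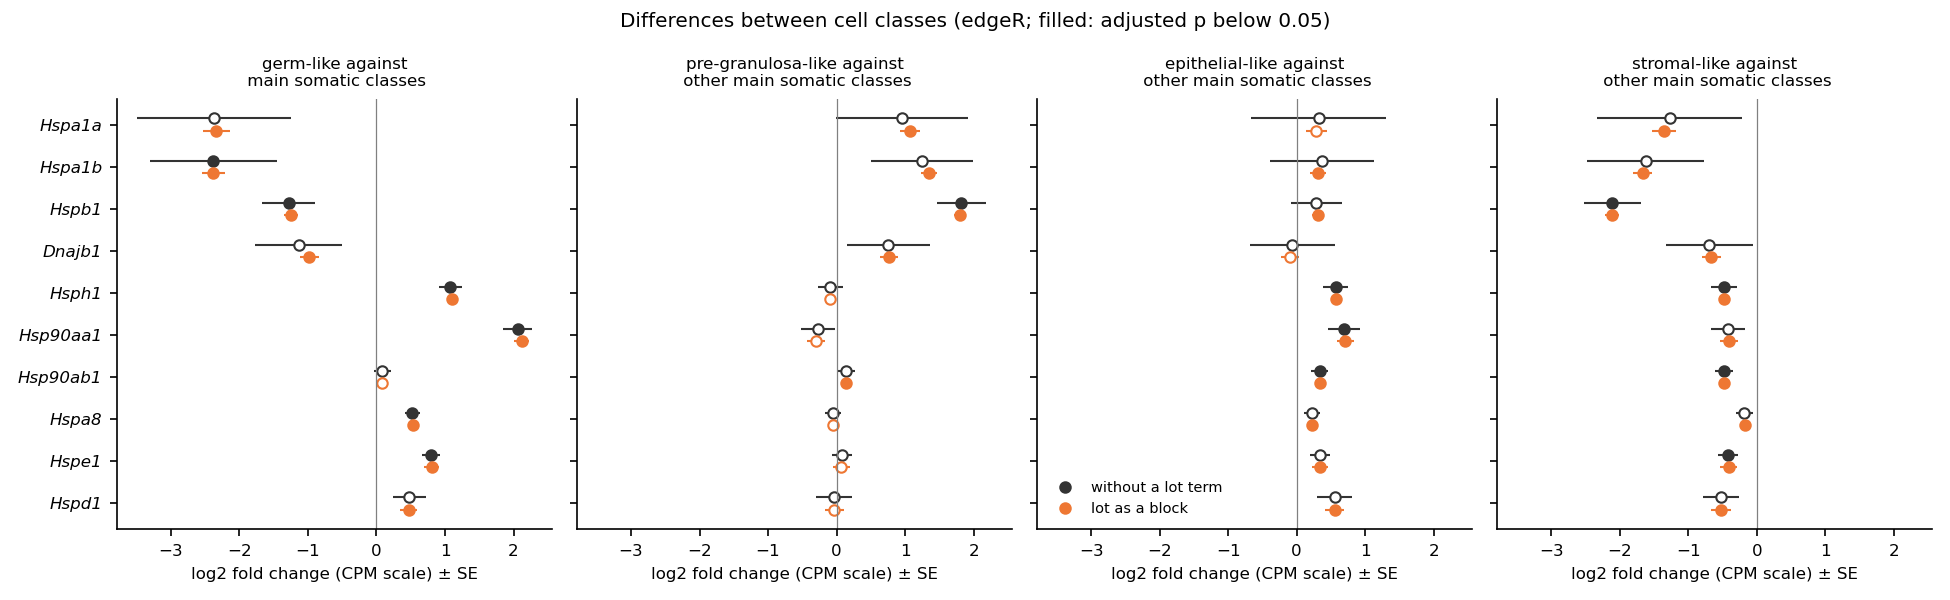
Log2 fold change (CPM scale) ± SE of each chaperone in germ cell-like cells against the main somatic classes and in each main somatic class against the others, from edgeR on 18 sums (n = 3 lots), without a lot term (black) and with the lot as a block (orange). Filled points passed an adjusted p of 0.05; the block narrows the error of Hspa1a, Hspa1b and Dnajb1 most, and leaves each value close to where it was.

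In endothelial-like and myeloid-like cells Hspa8 was the 1 member called without a block, higher by 0.28 ± 0.11 (adjusted p = 0.0451) and 0.36 ± 0.11 (adjusted p = 0.0164), beside backgrounds of 20.3% and 17.8% called higher. Both differences were seen in 3 of 3 lots. With the block, endothelial-like cells had lower Hspa1a (−1.18 ± 0.23, adjusted p = 0.00147), Hspa1b, Dnajb1 and Hspb1 and higher Hsp90ab1 and Hspa8 than the main somatic classes. The Hspb1 difference there was small, −0.28 ± 0.11 (adjusted p = 0.0493), and turned to 0.14 on the scale of UMIs per cell. Myeloid-like cells then had lower Hspb1 (−0.73 ± 0.17, adjusted p = 0.00246) and Hsp90ab1 (−0.31 ± 0.05, adjusted p = 1.6e-05). With the block, 3434 of 14548 genes were higher and 3427 lower in endothelial-like cells, and 2760 and 2511 in myeloid-like cells. The Hspa8 call in endothelial-like cells was lost when any lot was left out (0.19 to 0.39), and that in myeloid-like cells without lot 29 or lot 30 (0.28 and 0.39). Of myeloid-like cells lot 29 held 21.

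Lot 30 stood apart in the inducible members. With 1 library per lot no test between lots was possible, and a member is marked here when lot 30 was at least 2-fold above both other lots. In germ cell-like cells this held for 2 members, Hspa1a and Hspa1b, beside 0.249% of the genes at 20 CPM or more. In pre-granulosa-like cells it held for 5, Hspa1a, Hspa1b, Hspb1, Dnajb1 and Hsp90aa1, beside 0.412% of genes. In epithelial-like cells and stromal-like cells it held for 3, Hspa1a, Hspa1b and Dnajb1, beside 0.404% and 0.277%. In all, 16 to 26 genes per class passed this mark.

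The ratio of lot 30 to the mean of lots 26 and 29 was largest for Hspa1a, from 3.37 in myeloid-like to 9.83 in endothelial-like cells. It was 3.48 to 8.15 for Hspa1b and 2.17 to 3.55 for Dnajb1, the germ cell-like ratio being the lowest for Dnajb1. For Hspb1 it ran from 1.64 in germ cell-like to 3.04 in myeloid-like cells and for Hsp90aa1 from 1.15 in myeloid-like to 2.07 in pre-granulosa-like cells. Hsph1 was 1.26 to 1.61 times as high in lot 30, in each of the 6 classes. Hsp90ab1 (0.92 to 1.12), Hspa8 (1.01 to 1.27), Hspe1 (0.93 to 1.48) and Hspd1 (0.67 to 1.12) had ratios near 1. Pre-granulosa-like cells had the highest ratio of the 6 classes for each of these 4 genes. Between the other lots, Hspa1a in lot 29 was 0.47 to 1.43 times its level in lot 26 over the 6 classes.

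**Figure D3:**
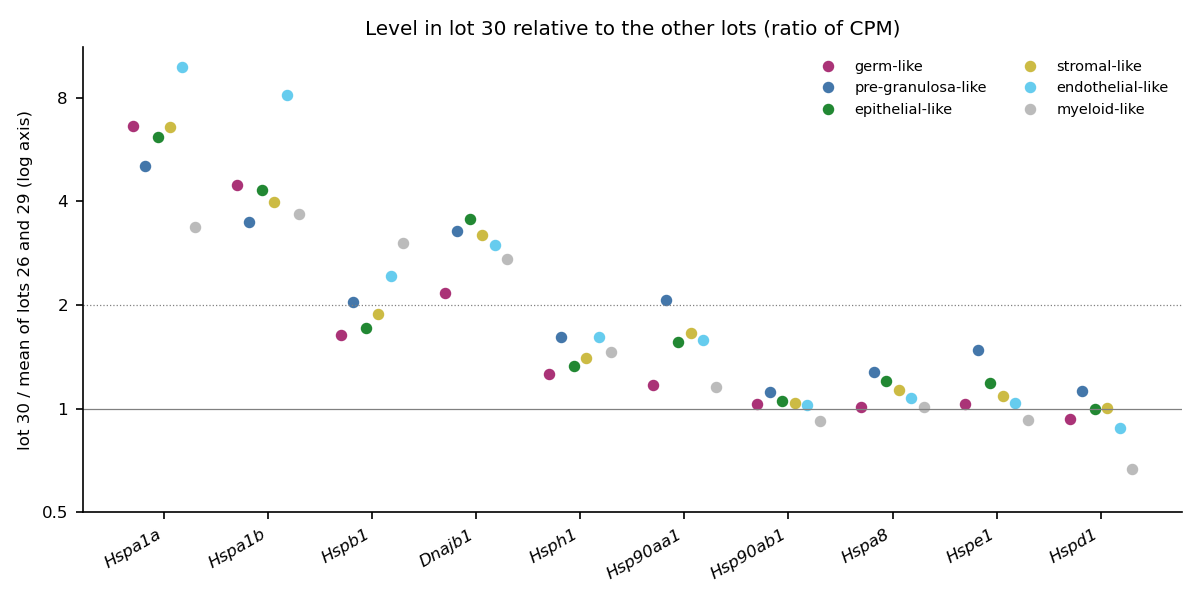
Ratio of the CPM level in lot 30 to the mean of lots 26 and 29 (log axis) for each chaperone, one point per fitted class; the solid line marks a ratio of 1 and the dotted line 2. Hspa1a, Hspa1b and Dnajb1 lie above 2 in all 6 classes, and Hsp90ab1, Hspa8 and Hspd1 lie around 1.

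Other stress lists were held to the same 2-fold mark, which 0.249% to 0.412% of all genes at 20 CPM or more passed in the 4 classes. The lists of other HSP70, HSP40, co-chaperone, small heat shock, TRiC, mitochondrial, endoplasmic reticulum and heat shock factor genes had 0 genes past it. Beside so low a background, a count of 0 is not read as a result. The immediate early genes are transcription factors and regulators that are induced within minutes. Of those at 20 CPM or more, 11 of 14 passed the mark in germ cell-like and 7 of 19 in pre-granulosa-like cells. In epithelial-like cells 8 of 18 passed, and in stromal-like cells 6 of 18. Red blood cell-like cells had their highest Hsp90ab1 level in lot 30 as well, at 860, 477 and 1883 CPM in lots 26, 29 and 30. Their own markers, mainly globins, took up 742250, 821640 and 595260 CPM in those lots. The CPM left for all other genes was thus largest in lot 30, and no rise of Hsp90ab1 is read from these levels. Median mitochondrial shares were 1.40%, 0.840% and 1.30% and did not set lot 30 apart. Whether free RNA plays a part in these levels was not tested. With the 31 held-out genes put back, 1 cluster of 3168 pre-granulosa-like cells appeared that was 91.7% from lot 30, with Hspa1a, Hspa1b and Hspb1 among its 10 leading genes, whereas with them held out lot 30 made up 33.1% to 44.5% of each main somatic cluster.

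To count responding cells at equal depth, each cell of 4000 UMIs or more was thinned to 4000 UMIs, and a cell with at least 2 UMIs of Hspa1a and Hspa1b together was called responding. In pre-granulosa-like cells 14.9%, 13.9% and 50.2% responded in lots 26, 29 and 30 (598 of 4007, 452 of 3256 and 2279 of 4540 cells). In epithelial-like cells the shares were 8.31%, 9.26% and 44.4%, and in stromal-like cells 2.03%, 4.23% and 19.2%. In germ cell-like cells they were 0.537%, 0.298% and 5.50%, or 4 of 745, 1 of 336 and 21 of 382 cells. With called doublets removed, the highest germ cell-like share of any lot was 2.18%, so the 5.50% depends on cells called doublets. The main somatic classes together gave 11.2%, 10.8% and 44.2%. The exact Clopper-Pearson 95% interval of the germ cell-like share in lot 30, 3.43% to 8.28%, lay below those of the 3 main somatic classes. Intervals on shares, here and below, cover the sampling of cells within 1 library and not the spread between lots. They are no test of a class difference. Thinning left out 9 germ cell-like and 191 main somatic cells.

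The background share in red blood cell-like cells was 0 of 19, 0 of 34 and 2 of 21 cells, or 9.52% in lot 30. Taken as 3 counts, a count of 0 allows a share of up to 15.8% and 8.82% in lots 26 and 29, and the exact intervals reach 17.6% and 10.3%. Those few cells bound the background only loosely. Most of their UMIs were of their own markers, so thinning left fewer UMIs for other genes than in the other classes. The germ cell-like, stromal-like and epithelial-like shares of lots 26 and 29 and the pre-granulosa-like share of lot 26 lay under the exact limits, so none of them can be told from background on this measure. In lot 30 the pre-granulosa-like and epithelial-like shares lay above the red blood cell-like interval of 1.17% to 30.4%, and the stromal-like and germ cell-like shares within it. Median depths before thinning in lot 30 were 23767 UMIs in germ cell-like and 11489 in red blood cell-like cells. Without thinning the germ cell-like share was 9.08%, 2.97% and 42.2% and the pre-granulosa-like share 29.5%, 22.4% and 70.0%. The unthinned germ cell-like value in lot 30 goes with the deeper cells and against its CPM, so no order is read from it. At 10 or more UMIs the share was 0 in germ cell-like cells of all 3 lots, and 0.200%, 0.184% and 7.05% in pre-granulosa-like cells.

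**Figure D4:**
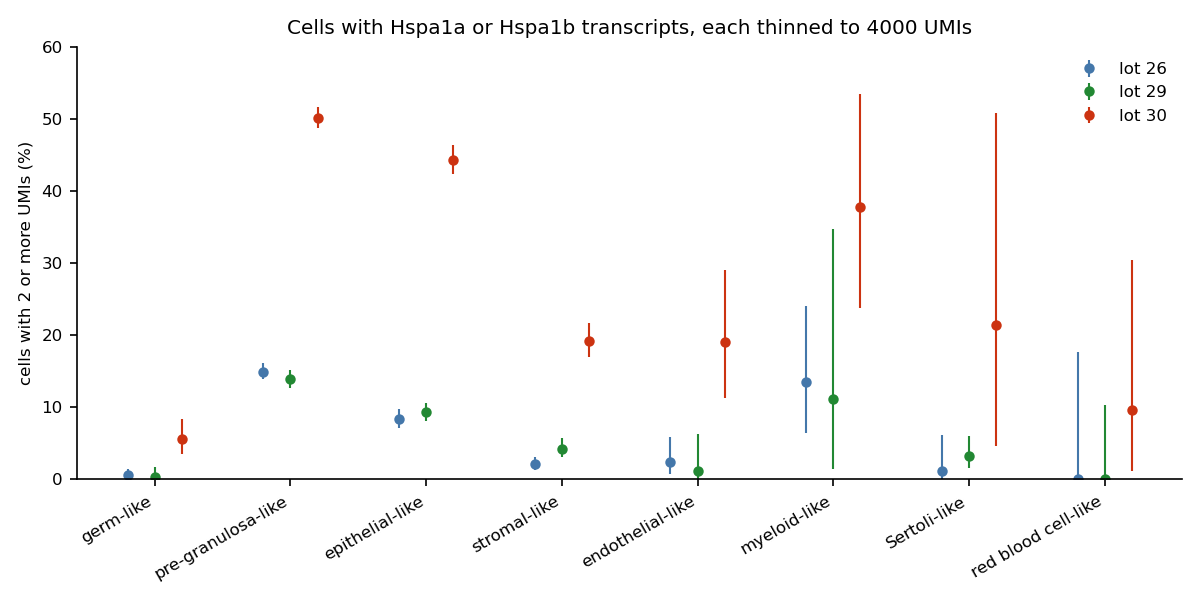
Share of cells (%) with 2 or more UMIs of Hspa1a and Hspa1b after thinning to 4000 UMIs, per class and lot, with exact Clopper-Pearson 95% intervals. Lot 30 is the highest point in each of the 8 classes, and in the germ cell-like class its 5.50% is under the 9.52% of red blood cell-like cells. Called doublets are included.

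Endothelial-like cells responded at 2.31%, 1.15% and 19.0%, myeloid-like cells at 13.4%, 11.1% and 37.8% and Sertoli-like cells at 1.12%, 3.19% and 21.4%, the last from 3 of 14 cells. Shares were also counted in 4 of the 7 unnamed clusters. Cluster 10, of 964 cells, had the highest of all classes and clusters counted, 17.5%, 25.8% and 61.2%. It had the mesonephric tubule gene Pax8 among its leading genes and was named pre-granulosa-like under a looser naming rule. Its Hspa1a level was 130, 164 and 748 CPM and its Dnajb1 level 312, 307 and 1101 CPM, above the pre-granulosa-like levels of each lot. The unnamed clusters 11 and 17, of 522 and 201 shallow cells, had Hsph1 levels of 174, 144 and 624 CPM and of 65.8, 145 and 383 CPM in lots 26, 29 and 30. Cluster 11 thus lay above the germ cell-like level in all 3 lots and cluster 17 in lots 29 and 30.

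The other 8 members were compared between responding and non-responding cells of the main somatic classes, in 9 combinations of class and lot at 4000 UMIs each. Cells were split by Hspa1a and Hspa1b alone, and the ratios are a description. Dnajb1 was higher in responding cells in 9 of 9 combinations, by a median ratio of 1.67 (1.37 to 2.42). Hspb1 followed with 1.62 (1.21 to 4.31), also in 9 of 9. The ratios of Hsph1, Hspe1, Hsp90aa1 and Hspa8 were 1.34, 1.22, 1.198 and 1.15 at the median, each above 1 in 9 of 9 combinations. Those of Hspd1 and Hsp90ab1, 1.11 and 1.07, were the smallest. Dnajb1 and Hspb1 were thus higher in responding cells of each of the 3 lots, not of lot 30 alone.

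**Figure D5:**
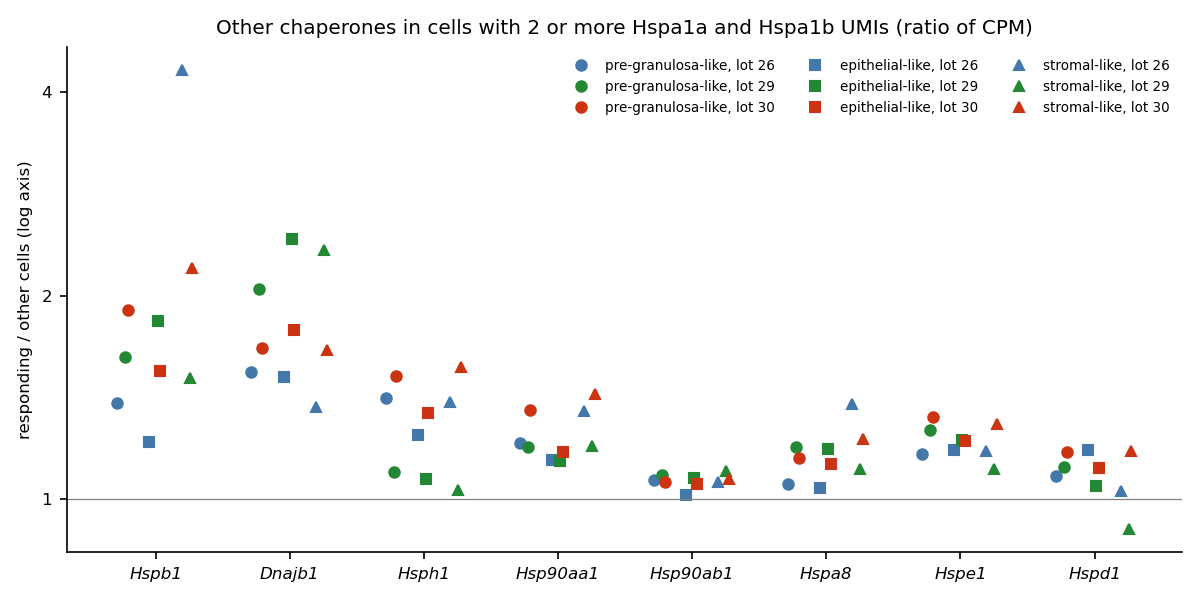
Ratio of the CPM level in responding cells to that in other cells of the same class and lot (log axis) for the 8 chaperones that did not define the split, in 9 combinations of 3 main somatic classes and 3 lots. Dnajb1 and Hspb1 have the highest medians, 1.67 and 1.62, and Hsp90ab1 lies near 1.

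The genes whose pattern over the 18 sums was most like that of Hspa1a and Hspa1b were mainly immediate early genes. Pearson's r of log2(CPM + 1) was 0.935 for Atf3, a stress-induced transcription factor, 0.922 for Dusp1, a MAP kinase phosphatase, 0.893 for Btg2, an antiproliferative gene, and 0.891 for Chka, choline kinase. Bloc1s4, Fos, Klf4 and Jun followed at 0.883, 0.871, 0.852 and 0.842. Among 6557 genes Dnajb1 ranked 7, at 0.869, and Hspb1 ranked 135, at 0.656, whereas the other members lay between −0.16 and 0.03. The 18 sums share 3 libraries, so these values describe the pattern and are given without a test. In lots 26, 29 and 30, Atf3 stood at 73.6, 121 and 783 CPM in the pre-granulosa-like class and at 13.5, 12.1 and 124 CPM in germ cell-like cells. Within main somatic cells Atf3 was higher in responding cells in 8 of 9 combinations, with ratios of 0.58 to 3.44, and Jun and Chka in 9 of 9.

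Lists of other chaperone genes differed in direction in germ cell-like cells. All 7 tested subunits of TRiC, the cytosolic chaperonin that folds actin and tubulin, were higher, beside the 40.6% of all genes, with a list median log2 difference of 1.14 against 0.04 over all genes. Cct2 led with 923, 1086 and 986 CPM in germ cell-like against 328 to 448 CPM in main somatic cells (1.49 ± 0.11, adjusted p = 2.9e-11), followed by Cct7 (1.42) and Tcp1 (1.24). Of the mitochondrial chaperones and proteases 7 of 8 were higher and 1 lower, with a median of 0.94, among them Dnaja3 (1.35), Trap1 (1.24) and Hspa9 (0.97). The HSP70 list was split, 4 of 8 higher and 4 lower, from Hspa4, a nucleotide exchange factor (1.28 ± 0.12, adjusted p = 1.37e-09), to Hspa13 (−0.62). The HSP40 list had 5 of 10 higher and 3 lower, with Dnajc2 (1.63) and Dnajb2 (−1.64) at its ends. Counts of the HSP70 and HSP40 lists are near the background of 40.6% higher and 36.4% lower. Hspa9 is counted in the HSP70 list too, and Dnaja3 in the HSP40 list, so these lists overlap the mitochondrial one.

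Beside the 40.6% of all genes higher and 36.4% lower in this contrast, several of the counts that follow are near the background. All 5 tested small heat shock genes other than Hspb1 were lower in germ cell-like cells, with a median of −1.38. Of the 6 listed, 1 reached 20 CPM in a lot in each of germ cell-like, pre-granulosa-like and stromal-like cells. In epithelial-like cells 2 did, so the count and median rest mostly on genes at low levels. The one named by the rule, Hspb11, an intraflagellar transport subunit that is not a stress chaperone, stood at 39.9, 35.5 and 38.5 CPM against 66.8 to 106 CPM in the main somatic classes (−1.11 ± 0.10, adjusted p = 8.07e-10). Of the co-chaperones 4 of 15 were higher and 7 lower. Stip1, the adaptor that joins HSP70 to HSP90, was higher (1.40 ± 0.08, adjusted p = 4.89e-13), as was Ptges3, the HSP90 co-chaperone p23 (0.82), whereas Fkbp5 was lower (−0.89). Of the endoplasmic reticulum genes 4 of 14 were higher and 7 lower, with Dnajb11 (1.07) and Hyou1 (0.93) above and Ddit3 (−1.25) below. Of the heat shock factor list 3 of 5 were higher, including Hsf2 (1.33 ± 0.09, adjusted p = 1.84e-11), and 1, Hsbp1 (−0.67), was lower. On the scale of UMIs per cell Hspa13 and Hsbp1 turned to 0.27 and 0.21, and Fkbp5 (−0.0011), Hspb11 (−0.23), Ddit3 (−0.37) and Zfp36 (−1.54) no longer passed.

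Immediate early genes were lower in germ cell-like cells for 16 of 19, beside 36.4% of all genes, with 0 higher and a median of −2.12. Jun had 234, 172 and 521 CPM there against 1333 to 3351 CPM in the main somatic classes (−2.78 ± 0.51, adjusted p = 2.21e-04), followed by Btg2 (−2.70) and Zfp36 (−2.45). Without lot 29 the calls of Btg2 (−2.52), Zfp36 (−2.35) and Ddit3 (−1.26) were lost.

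In the somatic contrasts, the listed genes named by the rule that reached 2-fold were Bag3 and Klf2, both in pre-granulosa-like cells. Bag3, the exchange factor that links HSP70 to small heat shock proteins, stood at 56.8, 46.5 and 63.0 CPM against 11.96 to 23.3 CPM in epithelial-like and stromal-like cells (1.77 ± 0.17, adjusted p = 5.55e-08). Its list had 5 of 15 higher and 5 lower. The HSP40 list had 3 of 10 higher and 1 lower in pre-granulosa-like cells, no more than the background of 29.2% higher and 25.7% lower. TRiC had 4 of 7 higher and 0 lower in epithelial-like cells, beside 14.7% and 20.6%. In stromal-like cells 6 of 14 endoplasmic reticulum genes were higher and 0 lower, beside 27.5% of all genes higher and 22.3% lower. There 6 of 8 mitochondrial, 7 of 15 co-chaperone and 4 of 5 small heat shock genes were lower, the last list mostly at low levels. Over all genes the median log2 difference was 0.03, −0.07 and 0.04 in pre-granulosa-like, epithelial-like and stromal-like cells. Klf2, a transcription factor, was higher in pre-granulosa-like (1.44, adjusted p = 0.043) and endothelial-like cells (1.44, adjusted p = 0.0443), calls that were lost without lot 26 or lot 29.

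In endothelial-like cells Dnajb4 was lower (−1.58 ± 0.29, adjusted p = 3.53e-04). In myeloid-like cells Dnajb2 (−1.58) and Hspb11 (−1.20) were lower, and Sdf2l1 (1.26) and the immediate early genes Ier3 (2.21), Zfp36 (2.00) and Klf6 (1.94) were higher. Of these, Ier3 and Zfp36 lost their call without lot 29, and Klf6 without lot 26 or lot 29.

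Within the germ cell-like class, cells with and without a UMI of Stra8, a gene switched on at entry into meiosis, were set side by side after thinning (564 and 181, 238 and 98, and 302 and 80 cells in lots 26, 29 and 30). Hsp90aa1 was 1.09, 0.97 and 1.10 times as high in cells with Stra8, and Hsp90ab1 0.95, 0.93 and 0.93 times. For Hsph1 the ratios were 1.32, 1.42 and 0.81. The direction was shared by all 3 lots for Hsp90ab1 but not for Hsp90aa1 or Hsph1.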

How the data were processed

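Per the labels and the study's methods, the authors built barcode whitelists with UMI-tools, used STAR 2.7 against GRCm38, assigned the reads that mapped once with featureCounts 2.0.1 and deposited UMI counts per gene and cell; the annotation release and strand setting are not given in the sources used here. Here barcodes with 200 to 9000 genes and at most 10% mt- UMIs were clustered with Seurat 5.3.0 (2000 variable genes less 31 held-out genes, 50 components, resolution 0.8) and named from markers. Doublets marked by Scrublet (scanpy 1.11.5; 566, 347 and 635 in lots 26, 29 and 30) stayed in the main analysis. Counts were summed per class and lot and tested with edgeR 4.0.16 (R 4.3.3, TMM, filterByExpr, no lot term, adjusted p below 0.05). On simulated data 180 of 200 changed genes of the germ cell contrast were recovered, with 12 false calls, 6.25% of the calls. Each sum was drawn there without a level shared within a lot, so the simulation does not cover that feature of the real sums. Classes of a lot come from 1 pool, and 45 of 45 same-lot pairs of sums deviated together (lowest r 0.19), so values with the lot as a block are given where they change a call. Alternatives were DESeq2 1.42.0, no filter, each lot left out, other clustering, stricter filters, thinning and UMIs per cell. Named listed genes were at most the 3 largest calls per list and contrast at a mean of 20 CPM or more, given in the somatic contrasts where they reached 2-fold, and the 8 genes most like Hspa1a and Hspa1b. Members and lists were chosen with earlier results of these data known. Totals of kept UMIs were 125898949, 87474664 and 141398825.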

Additional observations from a re-analysis of the deposited data

How the results depend on the processing

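Among 773 alternative values for the 49 chaperone results, 627 kept direction and side of the threshold, 93 newly passed, 32 no longer passed and 21 turned sign, none of them where the gene was called without a block. Under the paired analysis, with the lot as a replicate block, 7808 genes were called for epithelial-like cells against 5131, and 10474 with UMIs per cell as well; apart from the calls given above it changed no other call of a named gene. Of 500 values for 32 results of listed genes, 470 held, 26 no longer passed and 4 turned sign. Stromal-like calls were 4654 against 7250 with UMIs per cell, and endothelial-like calls 3746 against 5867 after thinning. Leaving out each lot gave 9991 to 11063 (germ cell-like), 6089 to 7881 (pre-granulosa-like), 2713 to 4945 (epithelial-like), 5087 to 7173 (stromal-like), 3661 to 5660 (endothelial-like) and 3098 to 4721 (myeloid-like) genes; fewer samples were fitted there. The mean responding share of germ cell-like cells, 2.11% ± 2.94 (SD, n = 3), was 9.49% at 1 UMI, 18.1% without thinning, 6.42% at 8000 UMIs, 0.831% without doublets and 0.417% to 3.02% with a lot left out; that of main somatic cells was 22.1% ± 19.1. The lot 30 counts of 2, 5, 3 and 3 members held under the alternatives run for them.

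Signs turned as follows; the cause was not tested. With UMIs per cell, without and with the block, Hspb1 in endothelial-like cells was 0.14 and 0.14, Dnajb1 in epithelial-like cells 0.45 and 0.41, Hsp90ab1 in pre-granulosa-like cells −0.26 and −0.27, Hspe1 there −0.30 and −0.33, and in germ cell-like cells Hsbp1 was 0.21 and 0.21 and Hspa13 0.27 and 0.26. Dnajb1 in epithelial-like cells was 0.0045 without a filter, 0.0023 without doublets and −0.072 to 0.030 with a lot left out. Hsp90ab1 in germ cell-like cells was −0.033 without a filter, −0.0079 thinned, −0.043 under looser naming and −0.017 to 0.051 with a lot left out. In pre-granulosa-like cells, Hsph1 was 0.011 thinned, Hspa8 0.017 thinned and Hspe1 −0.0023 under looser naming, and with a lot left out Hsph1 was −0.22 to 0.012, Hspd1 −0.12 to 0.0045 and Hspe1 −0.095 to 0.16. Looser naming and the block with UMIs per cell were added after seeing the data. Hspa1a in germ cell-like cells passed without lot 30 (−2.47) and without doublets (−2.96). Myeloid-like cells could not be fitted without doublets or after thinning, with under 20 cells in a lot. Shares in red blood cell-like cells rest on 74 cells, which limits the background.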
